A study of Homo sapiens with 6 samples.

Results

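The genes described here are 10 chemokines and epithelial cytokines: CXCL1, CXCL2, CXCL3, CXCL5, CXCL8, CCL2, CCL20, IL6, LIF and LTB. They were chosen by name, and every probe set whose only gene symbol in the platform annotation was one of them was taken. This gave 13 probe sets of 22215 tested, for 10 of 11963 genes, and every gene was measured. CXCL5 had 3 probe sets, CXCL8 had 2 and each of the others had 1.

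Expression was measured on single-colour Affymetrix arrays in HK2, a human line that was immortalised from proximal tubule epithelium of the kidney. Cells at 30% confluence received OCRL siRNA or non-targeting siRNA, both with the same transfection reagent, and RNA was extracted 96 h later. There were 3 arrays per group, described in the labels as biological replicates from independent experiments, so there were 6 in all and their number limits the precision. The groups thus share the line, the medium with insulin, transferrin and selenium, and the transfection, and no untransfected cells were among the samples. The question was what changes in proximal tubule cells depleted of OCRL, a phosphoinositide phosphatase of endosomes whose loss causes Lowe syndrome. The sequence of the siRNA is not given in the sources used here.

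Chemokines are small secreted proteins that direct the migration of leukocytes along a gradient through G protein-coupled receptors. The CXC members described here attract mainly neutrophils through CXCR2, CCL2 attracts monocytes through CCR2, and CCL20 attracts dendritic cells and lymphocytes that carry CCR6. IL6 and LIF signal through receptors that share gp130 (IL6ST) and activate STAT3, and lymphotoxin beta (LTB) is a membrane-bound TNF family ligand that anchors lymphotoxin alpha and acts through LTBR. Many of these genes are known targets of NF-kB and AP-1 in injured tubule epithelium.

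The siRNA lowered its target. OCRL was at 9.49, 9.48 and 9.50 on the control arrays and at 7.52, 7.49 and 7.40 on the knockdown arrays by its brighter probe set (log2 intensity). This left 24.6% of the control level, and 49.7% by the dimmer probe set, so the knockdown was partial. In all, 3105 of 11963 genes changed at an adjusted p under 0.05 by limma, 1854 higher and 1251 lower, and after median centring 1437 were higher and 1770 lower. Median centring moved the median log2 difference of all probe sets from -0.007 to -0.053. Of 10 kidney epithelial markers measured, 7 lay above the median of every array, whereas of 11 proximal tubule markers 3 did and 3 were under the lower quartile on all arrays. Of all 11963 genes, 6619 lay above the median of every array and 2071 under the lower quartile on all. The shares of all genes called were 15.5% higher and 10.5% lower. Of the 10 kidney epithelial markers 6 fell and 0 rose, whereas of the 11 proximal tubule markers 3 rose, DPP4 (log2 difference 0.68), MME (0.61) and the dim ANPEP (0.56), and SLC4A4 fell (-1.08). The part of these markers in the results was not tested. The megalin gene LRP2 (log2 level 3.99 in control and 3.81 in knockdown cells) was among the dim ones, so the line's proximal tubule identity was only partly visible in its mRNA. Markers of leukocytes were dim: 0 of 16 lay above the median of every array, 7 were under the lower quartile on all arrays, and their mean log2 level was 5.22 to 5.33 in control and 5.33 to 5.35 in knockdown arrays. PTPRC, the pan-leukocyte marker, was at 4.15 and 4.09, and ITGB2, an integrin chain of leukocytes, was the only marker of the list that rose (log2 difference 0.52). Its part in the results was not tested. Of the 9 endothelial and 10 fibroblast markers, 0 and 2 lay above the median of every array, with ERG higher (0.91) and LUM lower (-0.61).

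CCL20 and LTB rose and CXCL3 fell, and the other 7 genes did not pass the test. By 1 probe set per gene, 2 of 10 genes were called higher and 1 lower, beside 15.5% of all genes called higher and 10.5% called lower. The share of members called in either direction, 3 of 10, is near the 26.0% of all genes, so it is not a result about these genes as a set. By probe set, 2 of 13 were higher and 1 lower, beside 13.2% and 9.89% of all probe sets and 23.1% in either direction. After quantile normalisation 2 genes were higher and 2 lower, and after median centring 2 were higher and 3 lower. Without OCRL siRNA replicate 1 the genes called lower were CXCL3 and LIF, 2 in place of 1. The median log2 difference of the 10 genes was -0.10, beside 0.00 over all genes. Groups did not overlap in 7 of the 10 genes, 2 higher and 5 lower, beside 44.9% of all genes, 25.1% higher and 19.8% lower. By probe set they did not overlap in 10 of 13, 3 higher and 7 lower, beside 40.7% of all probe sets, 21.8% higher and 18.9% lower. An exact permutation test of 3 arrays against 3 cannot go below p = 0.10, and where the groups did not overlap it gave that value, so calls rest on limma, which pools the spread over probe sets.

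**Figure D1:**
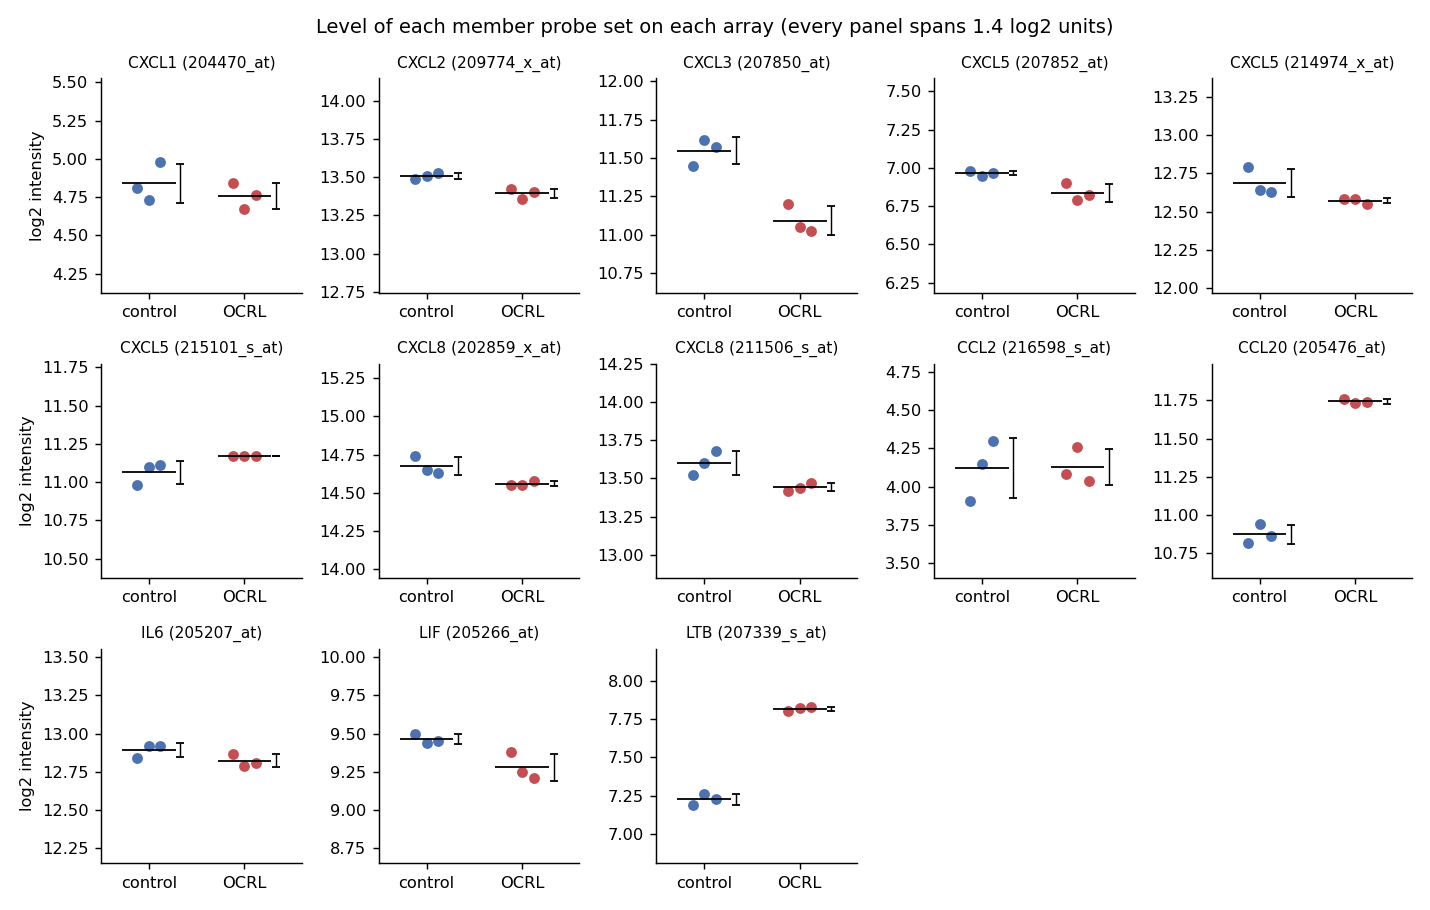
Log2 intensity of each of the 13 member probe sets on the 6 arrays. Points are arrays (blue, control siRNA; red, OCRL siRNA), the black line is the mean of 3 and the bar its SD, and every panel spans the same 1.4 log2 units. CCL20 and LTB stand clearly higher and CXCL3 lower in the knockdown arrays, while the other panels show shifts of at most 0.18.

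CCL20, a chemokine of mucosal and tubular epithelium, had the largest change of the 10 genes. It was at 10.82, 10.94 and 10.86 (log2 intensity) on the control arrays and at 11.76, 11.73 and 11.74 on the OCRL siRNA arrays. The knockdown arrays lay within 0.03 of each other and all above the controls, whose range was 0.12. The means were 10.88 ± 0.0625 and 11.74 ± 0.0162 (SD, n = 3), a 1.82-fold rise (log2 difference 0.87, SE 0.0476, 95% interval 0.75 to 0.98, adjusted p = 7.92e-05, limma). Only 178 of 11963 genes, 1.49%, changed at least as much in either direction. Differences between arrays of the same replicate number were 0.93, 0.78 and 0.88. CCL20 has a single probe set, which lay above the median of every array and whose name carries no mark of shared probes. CCR6, its receptor, lay at 4.06 and 4.05, below the lower quartile of every array, with a difference of -0.01 (adjusted p = 0.962).

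LTB rose with it. The control arrays gave 7.19, 7.26 and 7.23 and the knockdown arrays 7.80, 7.82 and 7.83 (log2 intensity). The groups were far apart against ranges of 0.07 and 0.03 within them. LTB thus rose 1.51-fold, from 7.22 ± 0.0354 to 7.82 ± 0.0166 (log2 difference 0.59, SE 0.0419, 95% interval 0.49 to 0.69, adjusted p = 1.86e-04). Its probe set is an _s_at type, which can share probes between transcripts of a gene family, so LTB was not measured when that type was left out. In RefSeq (GRCh38.p14) LTB lies next to TNF, which is followed by LTA. LTA, the ligand that LTB anchors at the membrane, was at 6.17 and 6.04 (difference -0.13, adjusted p = 0.121), and TNF at 5.06 and 4.90 (-0.16, adjusted p = 0.429). Neither passed. LTBR, the receptor of the LTA and LTB complex, was above the median of every array at 9.86 and 9.85 (difference -0.01, adjusted p = 0.901). Of the 9 neighbouring genes of LTB that were measured, 0 passed by limma, and groups did not overlap in 6 of them, beside 44.9% of all genes. At an unadjusted p under 0.05 there were 3 (NFKBIL1 at 0.16, LST1 at -0.28 and LTA), beside 38.5% of all genes. Without OCRL siRNA replicate 3, 1 neighbour was called lower, beside 18.1% of all genes called in either direction.

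The promoter windows of the genes that rose, CCL20 and LTB, and of CXCL3, CXCL2 and CXCL1, close relatives of which CXCL3 alone passed the test, are shown because many of the 10 genes are known NF-kB targets. Each runs from 250 bases before the start of transcription to 49 bases after its first base, in RefSeq on GRCh38.p14, and capitals mark matches to the NF-kB consensus or to GGAATTTCC on either strand. The windows are chr2:227813592-227813891 (plus strand) for CCL20, chr6:31582376-31582675 (minus) for LTB, chr4:74038640-74038939 (minus) for CXCL3, chr4:74099146-74099445 (minus) for CXCL2 and chr4:73869143-73869442 (plus) for CXCL1.
CCL20: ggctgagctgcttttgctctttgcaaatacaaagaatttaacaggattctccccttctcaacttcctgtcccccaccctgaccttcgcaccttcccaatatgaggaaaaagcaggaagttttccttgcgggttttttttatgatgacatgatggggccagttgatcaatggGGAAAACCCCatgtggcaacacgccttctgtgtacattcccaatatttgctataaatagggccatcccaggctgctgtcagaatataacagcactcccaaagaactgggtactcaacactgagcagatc
LTB: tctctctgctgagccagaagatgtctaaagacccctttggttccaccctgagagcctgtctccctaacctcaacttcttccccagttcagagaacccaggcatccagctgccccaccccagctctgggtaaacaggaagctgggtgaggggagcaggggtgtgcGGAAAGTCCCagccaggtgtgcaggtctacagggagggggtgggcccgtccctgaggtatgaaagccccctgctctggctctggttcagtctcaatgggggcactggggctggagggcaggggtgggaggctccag
CXCL3: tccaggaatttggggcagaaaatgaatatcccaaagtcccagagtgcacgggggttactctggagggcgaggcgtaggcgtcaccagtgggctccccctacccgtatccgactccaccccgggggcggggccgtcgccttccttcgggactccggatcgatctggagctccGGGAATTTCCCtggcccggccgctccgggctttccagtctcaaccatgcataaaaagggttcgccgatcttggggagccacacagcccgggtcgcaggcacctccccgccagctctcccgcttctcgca
CXCL2: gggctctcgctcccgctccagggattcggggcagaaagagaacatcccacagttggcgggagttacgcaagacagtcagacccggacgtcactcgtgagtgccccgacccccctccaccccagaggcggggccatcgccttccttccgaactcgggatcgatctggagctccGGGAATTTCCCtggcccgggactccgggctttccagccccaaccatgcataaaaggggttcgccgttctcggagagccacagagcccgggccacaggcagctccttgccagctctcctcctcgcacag
CXCL1: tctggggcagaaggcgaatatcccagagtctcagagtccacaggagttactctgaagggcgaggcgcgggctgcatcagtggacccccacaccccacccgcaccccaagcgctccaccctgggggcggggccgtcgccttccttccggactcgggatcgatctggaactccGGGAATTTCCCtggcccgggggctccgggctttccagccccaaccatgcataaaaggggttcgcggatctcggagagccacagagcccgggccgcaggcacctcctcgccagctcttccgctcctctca

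A promoter window was held for 8 of the 10 genes, those other than CCL2 and LIF. The NF-kB consensus was matched in 7 of the 8, in every one but CXCL8, beside 5.72% of 27305 promoter windows of the same length. The 9 letters GGAATTTCC, which overlap the consensus match wherever both occur, were matched in 5 of the 8 (CXCL1, CXCL2, CXCL3, CXCL5 and CXCL8), beside 0.472% of all windows. Many of these genes were known NF-kB targets beforehand, and the windows of CXCL1, CXCL2 and CXCL3 are 72.1% to 82.5% identical. The matches are thus not independent, and the contrast with all windows is not a test. In CCL20 the match read GGGGTTTTCC on the strand opposite to the gene, between 79 and 70 bases before the start. In LTB it read GGGACTTTCC, also on the opposite strand, between 86 and 77 bases before the start. CXCL1, CXCL2, CXCL3 and CXCL5 each held GGGAATTTCC, which also matches on the other strand when shifted by 1 base, from 79, 78, 79 and 91 bases before the start. IL6 held GGGATTTTCC from 73 bases before the start. The AP-1 motif TGANTCA, searched on both strands, was matched in CXCL8 alone of the 8, beside 7.76% of all windows. Genes that rose, fell and did not pass thus all held a match, and a match is a description of letters, not of a bound site.

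**Figure D2:**
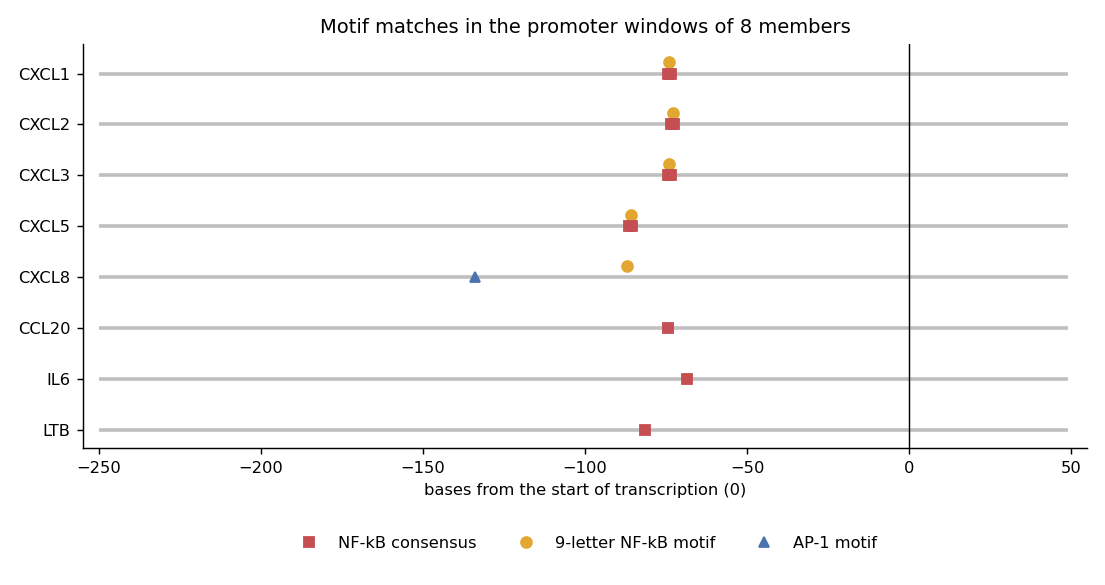
Position of motif matches in the promoter windows of 8 genes, in bases from the start of transcription. Squares are the NF-kB consensus, circles the 9 letters GGAATTTCC and the triangle the AP-1 motif. Every match of the NF-kB consensus or of GGAATTTCC lies between 91 and 64 bases before the start, and the AP-1 match lies further upstream.

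CXCL3, a neutrophil chemokine, was the 1 gene of the 10 that fell by limma. The control arrays were at 11.45, 11.62 and 11.57 and the knockdown arrays at 11.20, 11.05 and 11.02 (log2 intensity). All knockdown arrays lay below all controls, and the nearest arrays of the groups, control replicate 1 and OCRL siRNA replicate 1, were the closest pair. The fall from 11.54 ± 0.0871 to 11.09 ± 0.0947 left 72.9% of the control level (log2 difference -0.46, SE 0.0685, 95% interval -0.62 to -0.29, adjusted p = 0.00386). The change was 1.37-fold, so CXCL3 did not meet a minimum of 1.5-fold, under which CCL20 and LTB were the 2 of 10 members called, beside 4.20% of all genes. LTB met this minimum narrowly, at 1.51-fold. Its log2 difference was under that minimum after median centring (0.55) and quantile normalisation (0.56). Differences between arrays of the same number were -0.25, -0.57 and -0.55.

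CXCL2, a close paralog of CXCL3, was at 13.49, 13.51 and 13.53 on the control arrays and at 13.42, 13.36 and 13.40 on the knockdown arrays. The groups did not overlap, but the shift was small and did not pass (log2 difference -0.12, 95% interval -0.22 to -0.02, adjusted p = 0.0846). CXCL2 was called lower in 5 of 15 other settings (median centring, trend and robust settings, array weights and both filters on dim probe sets), with an adjusted p from 0.00277 to 0.217. CXCL1, the third of these near relatives, lay at 4.81, 4.73 and 4.98 in control and 4.84, 4.67 and 4.76 in knockdown cells. It was below the lower quartile of every array in both groups, the groups overlapped and its difference was -0.08 (95% interval -0.27 to 0.10, adjusted p = 0.516). CXCL1, CXCL2 and CXCL3 have similar sequences, and the CXCL2 probe set is of the _x_at type, whose probes can bind other transcripts, so signal shared between these genes was not told apart. Their promoter windows were identical at 82.5% of aligned positions for CXCL1 and CXCL3, 73.8% for CXCL2 and CXCL3 and 72.1% for CXCL1 and CXCL2.

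CXCL8, or interleukin 8, was near the top of the scale. Its brighter probe set gave 14.74, 14.65 and 14.63 in control and 14.55, 14.55 and 14.58 in knockdown cells, where the highest value in the whole table was 15.08. The groups did not overlap and the difference did not pass (-0.11, 95% interval -0.23 to 0.00, adjusted p = 0.145). Its other probe set gave 13.52, 13.60 and 13.68 against 13.42, 13.44 and 13.47, again with no overlap (-0.15, adjusted p = 0.0807). The brighter probe set of CXCL8 was called lower in 3 of 15 other settings (adjusted p from 0.00800 to 0.276) and the other in 6 of 13 (0.00428 to 0.221), among them the omission of control replicate 1 (0.0362). Whether such bright probe sets were close to saturation, was not tested.

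CXCL5, another neutrophil chemokine, was measured by 3 probe sets that did not point the same way. The brightest gave 12.79, 12.64 and 12.63 in control and 12.58, 12.58 and 12.55 in knockdown cells (difference -0.12, adjusted p = 0.190). The dimmest, below the median of every array, gave 6.98, 6.95 and 6.97 against 6.90, 6.79 and 6.82 (-0.13, adjusted p = 0.0817). The third gave 10.98, 11.10 and 11.11 against 11.17, 11.17 and 11.17 (0.11, adjusted p = 0.181). In each of the 3 the groups did not overlap, with knockdown arrays lower in the first and second and higher in the third, and none passed. The brightest was called lower in 1 of 16 other settings, the dimmest in 2 of 13 and the third in 0 of 13.

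The CXC genes lie side by side in RefSeq, where 9 protein-coding genes run from CXCL8 to CXCL2 on chromosome 4 and all 9 are chemokines. In that order they are CXCL8, CXCL6, PF4V1, CXCL1, PF4, PPBP, CXCL5, CXCL3 and CXCL2, so CXCL3 lies between CXCL5 and CXCL2. CXCL6 was dim at 4.22 and 4.03 (difference -0.19, adjusted p = 0.153). The log2 difference of CXCL3 minus that of CXCL2, of CXCL5 and of CXCL8, by the brightest probe set of each, was -0.34 each time. These 3 probe sets are bright _x_at types whose saturation and shared signal were not tested, and the CXCL5 probe set at 0.11 was not compared. In all 3 comparisons the within-array differences of the groups did not overlap. An exact permutation test (two-sided) had p = 0.10, also after Benjamini-Hochberg adjustment over the 3. This is the smallest value the design allows, so the test could not decide whether the change was unequal. Of 11 measured genes in and around the cluster other than the members, MTHFD2L, a mitochondrial folate enzyme gene, fell (-0.99, SE 0.126, adjusted p = 0.00194) and 0 rose. MTHFD2L had a mean level below the median of all probe sets. The share called was 9.09%, beside 26.0% of all genes.

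**Figure D3:**
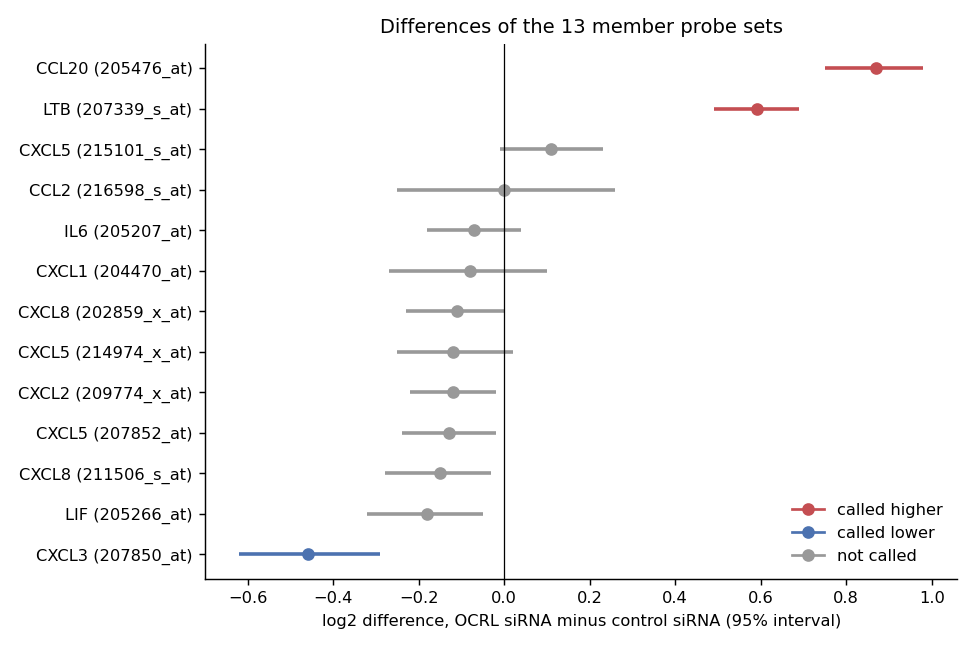
Log2 difference (OCRL siRNA minus control siRNA) of each member probe set with its 95% interval from limma. Red and blue mark probe sets called higher and lower at an adjusted p under 0.05, and grey those not called; CCL20 and LTB lie to the right, CXCL3 to the left at -0.46, and the rest lie between -0.18 and 0.11.

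CCL2, the monocyte chemokine, was the dimmest of the 10 genes' probe sets in both groups and showed no difference that passed. It was at 3.91, 4.15 and 4.30 in control and 4.08, 4.26 and 4.04 in knockdown cells, below the lower quartile of every array. The groups overlapped fully, and the 95% interval of the difference ran from -0.25 to 0.26 (adjusted p = 0.983).
The gp130 cytokines were both above the median of every array. LIF, leukemia inhibitory factor, was at 9.50, 9.44 and 9.45 in control and 9.38, 9.25 and 9.21 in knockdown cells. The groups did not overlap, and the difference missed the threshold narrowly (-0.18, SE 0.0557, 95% interval -0.32 to -0.05, adjusted p = 0.0567). LIF was called lower in 8 of 16 other settings, among them the omission of OCRL siRNA replicate 1 (adjusted p = 0.0310), and over all 16 its adjusted p ran from 0.0140 to 0.170. IL6 was at 12.84, 12.92 and 12.92 against 12.87, 12.79 and 12.81. Its groups overlapped through control replicate 1 and OCRL siRNA replicate 1, and it did not pass (-0.07, 95% interval -0.18 to 0.04, adjusted p = 0.354).

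Over the members, the spread within a group in control cells was widest for the dim CCL2 and CXCL1, with SDs of 0.193 and 0.125, and far smaller for LTB and CXCL2 (0.0354 and 0.0206). The signs of the differences were below 0 in 7 of 10 genes and in 9 of 13 probe sets. Differences above 0 were found in 3 of the 10 genes, beside 5992 of all 11963 genes. CCL2 is counted among these 3 at 0.00, and it kept that sign in 9 of 13 other settings. RNA came from whole cultures, so fewer cells making a transcript and less of it per cell cannot be told apart.

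The patterns most like those of CCL20 and LTB were sought among all other genes by the root mean square difference over the 6 arrays, after the control mean of each gene was taken off. For CCL20 these were PLIN2, a lipid droplet coat protein (0.0215), RAC2 (0.0283) and the GTPase RAB31 (0.0310), which rose by 0.87, 0.85 and 0.86. For LTB they were the aminopeptidase ERAP2 (0.0240), the kinase MAPKAPK3 (0.0255) and the thioredoxin regulator TXNIP (0.0273), which rose by 0.56, 0.57 and 0.58. With 2 groups of arrays this measure mainly finds genes with a difference of the same size, and it is a description.

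Among receptors of the 10 genes, the shared signal chain IL6ST fell slightly (log2 difference -0.22, SE 0.0648, adjusted p = 0.0479), and 11 of 12 did not pass. The IL6ST call was lost without any 1 of the 6 arrays (adjusted p = 0.0695 to 0.132), and none of its 4 other probe sets was called. IL6R (0.05, adjusted p = 0.632) and LIFR (-0.13, adjusted p = 0.272) did not pass, and the neutrophil chemokine receptor CXCR2 was under the lower quartile on all arrays (3.43 and 3.45). Of 19 genes of gp130, JAK and STAT3 signalling, 1 rose and 4 fell, 26.3% in all beside the 26.0% of all genes, with 2 lower without control replicate 2 and 1 lower without control replicate 3 or any OCRL siRNA replicate. PIAS3, an inhibitor of STAT3, fell by 0.52 (SE 0.0697), the survival gene MCL1 by 0.19 (SE 0.0456) by 1 of 5 probe sets and the feedback inhibitor SOCS2 by 0.23 (SE 0.0619) by 1 of 2. MCL1 lost its call without any array other than control replicate 1 (adjusted p = 0.0643 to 0.0870), and SOCS2 without control replicate 3 or any OCRL siRNA replicate (0.0807 to 0.0974). SOCS1, a feedback inhibitor, was higher by 0.62 (SE 0.131, adjusted p = 0.0154) by 1 of its 4 probe sets, and the call was lost without OCRL siRNA replicate 1 (adjusted p = 0.0506) or 2 (0.0514). SOCS1 and SOCS2 had mean levels below the median of all probe sets.

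Other cytokines moved in both directions. Of 30 measured, 4 rose and 8 fell, 40.0% beside the 26.0% of all genes, with 5 lower without OCRL siRNA replicate 2 or 3. TGFB2, a growth factor of the TGF-beta family, fell from 11.41 to 10.06 (log2 difference -1.35, SE 0.0624), and all 4 of its probe sets were called lower. IL11, which also signals through gp130, fell from 10.70 to 9.59 (log2 difference -1.11, SE 0.0453), and its other probe set was called lower too. GDF15, a stress-induced cytokine, rose from 9.95 to 10.90 (0.94, SE 0.0528) by 1 of 2 probe sets, and IL7, a lymphocyte growth factor, from 6.79 to 7.76 (0.97, SE 0.0857). Of 25 other chemokines, 16 were under the lower quartile on all arrays, 0 rose and 2 fell, the dim CCL18 (-0.41) and CCL4 (-0.30). Without OCRL siRNA replicate 1, 1 was higher and 4 were lower, after quantile normalisation 1 was higher and 2 lower, and after median centring 0 and 5. Of all genes, 20.1%, 26.5% and 26.8% were called in these settings, in that order. CCL18 was not called by its other probe set.

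Regulators that act on these genes are known at several steps, and the lists were read with the share of all genes called, 26.0%, in view. Of 21 NF-kB factors and regulators, 5 rose and 1 fell, 28.6% in all, or 4 and 2 after quantile normalisation and 3 and 3 after median centring. Those higher numbered 3 without control replicate 2 or 3 or OCRL siRNA replicate 1 or 2, and those lower 2 without control replicate 1 and 0 without control replicate 2 or 3 or OCRL siRNA replicate 3. The kinase MAP3K14, which starts the branch of NF-kB signalling downstream of LTBR, rose by 0.38 (SE 0.0708), and TNIP2 rose by 0.35 (SE 0.0413). CYLD, a deubiquitinase that restrains NF-kB, was higher by 0.36 (SE 0.0676) by its brightest probe set, but of its 6 others 1 was called higher and 1 lower. TNIP1 fell by 0.23 (SE 0.0482) and lost its call without control replicate 2 or 3 or OCRL siRNA replicate 3 (adjusted p = 0.0512 to 0.0601). The subunit genes NFKB1 (0.02), RELA (-0.07) and RELB (0.11) did not pass. Of 25 receptors and adaptors upstream of NF-kB, 5 rose and 2 fell, or 5 and 4 after quantile normalisation or median centring. TLR3, a sensor of double-stranded RNA, rose by 0.82 (SE 0.0522). The interleukin 1 decoy receptor IL1R2 rose by 1.14 (SE 0.131), the signalling receptor IL1R1 by 0.55 (SE 0.0927) by 1 of its 2 probe sets and the TNF receptor TNFRSF1B by 0.74 (SE 0.106). TLR3, IL1R2 and TNFRSF1B had mean levels below the median of all probe sets.

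Of 12 AP-1 and C/EBP factors measured, 9 lay above the median of every array. This list was chosen with earlier results of these data known. In it 6 rose and 2 fell, 66.7% beside 26.0% of all genes, with 1 lower without any array other than control replicate 2. When dim probe sets below the median were left out and the rest fitted anew, 52.2% of genes were called. The 66.7% was not taken from that fit, so these shares are not on the same footing. FOSL1 rose by 0.86 (SE 0.0502), FOSB by 0.44 (SE 0.0577) and FOSL2 by 0.34 (SE 0.0440), the last by 2 of 3 probe sets, and CEBPD by 0.33 (SE 0.0426) by 1 of 2. FOSB had a mean level below the median of all probe sets. Of 16 factors of AU-rich mRNA decay, which shortens the life of many cytokine mRNAs, 1 rose and 6 fell, 43.8% in all, with 3 lower without control replicate 3, and 0 higher without control replicate 3 or OCRL siRNA replicate 1 or 2. The decay factor ZFP36 fell by 0.33 (SE 0.0652), the phosphatase DUSP1, which restrains p38 kinase, by 0.75 (SE 0.0692) and the decapping enzyme DCP2 by 0.50 (SE 0.0465). DUSP1 was not called by its other probe set (-0.30, adjusted p = 0.210). The p38 target kinase MAPKAPK2 fell by 0.21 (SE 0.0417) by 1 of 3 probe sets, and lost its call without control replicate 3 (adjusted p = 0.0528). Of 23 other known NF-kB targets, 6 rose and 7 fell, 56.5% in all, with 3 higher without OCRL siRNA replicate 3. Above the median of every array lay 17 of these 23 and 15 of the 16 decay factors. Both shares come from the fit on all probe sets, unlike the 52.2% of genes called when dim probe sets below the median were left out. CD83 rose by 1.72 (SE 0.0576) and the pentraxin PTX3 by 0.77 (SE 0.0591), whereas complement factor B, CFB, fell by 1.30 (SE 0.0473) and the matrix protein TNFAIP6 by 0.93 (SE 0.0486). CFB was called by 1 of its 2 probe sets.

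**Figure D4:**
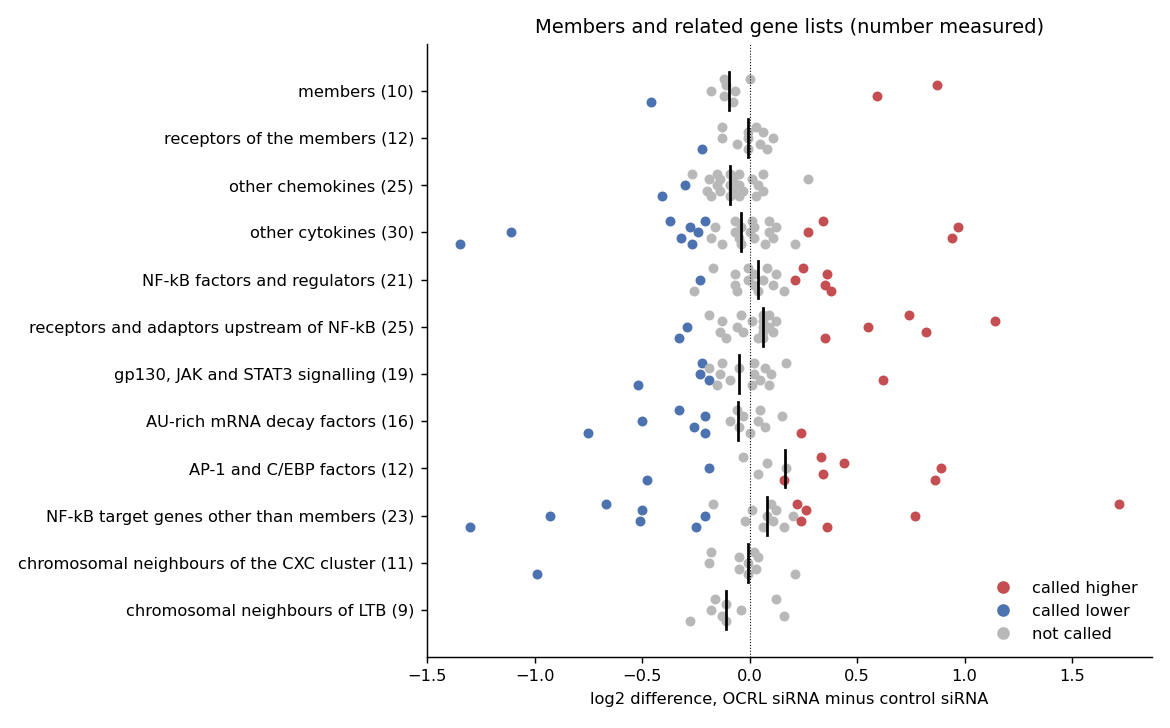
Log2 difference of each measured gene of the members and of 11 related lists, with the number measured in brackets. Red and blue points were called higher and lower, grey points were not called, and black bars are medians; both directions occur in the members and in most lists, and the median of the members is -0.10.

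**Figure D5:**
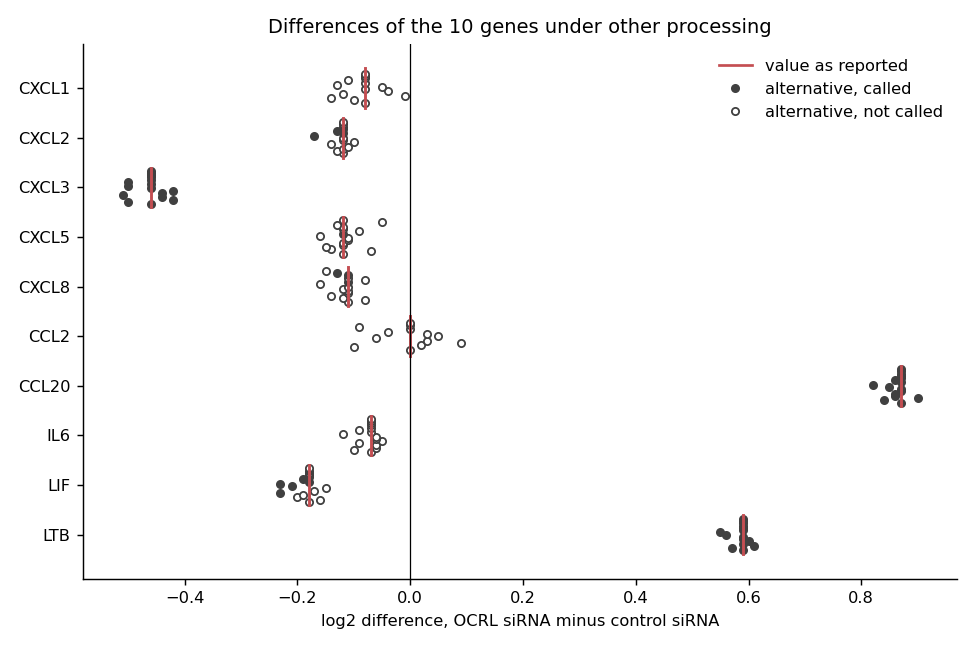
Log2 difference of each of the 10 genes as reported (red line) and under up to 16 other settings (points, filled where called at an adjusted p under 0.05). CCL20 stays between 0.82 and 0.90, LTB between 0.55 and 0.61 and CXCL3 between -0.51 and -0.42, while CCL2 lies on both sides of 0.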

How the data were processed

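Total RNA of 6 cultures was labelled with biotin and hybridised to 1 Affymetrix array each, per the labels' protocols. The authors deposited log2 intensities. The tools affy and RMA are listed per the submitters' processing notes, and their versions are not given in the sources used here. RMA sets arrays to a common distribution, which removes changes shared by most genes and compresses dim values. Of 22277 probe sets, 62 control probe sets were left out. Names came from GEO's platform annotation, and 19064 probe sets had 1 symbol, 1043 several and 2108 none. Of the first, 19052 matched RefSeq by Entrez identifier and 0 symbols changed.

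A gene was represented by its probe set with the highest mean over the 6 arrays. The test was limma's moderated two-sided test (version 3.58.1, R 4.3.3), with no term but the group. P-values were adjusted by the Benjamini-Hochberg method over all 22215 probe sets, and the threshold was 0.05. Differences are OCRL siRNA minus control siRNA, and SE is the moderated standard error. The code of the fit was run on simulated data with independent noise and effects added to some probe sets. That run does not bear on errors shared within an array, and so not on the calls. Genes were named by rule: every member, OCRL, up to 4 called genes of each related list with the smallest p, or the 1 with the smallest p, and receptors and neighbours of members. LST1, NFKB1, RELA, RELB and the markers LRP2, DPP4, MME, ANPEP, SLC4A4, PTPRC, ITGB2, ERG and LUM were named after their values were seen. Promoters came from RefSeq on GRCh38.p14 and were aligned with Biopython 1.88. Figures were drawn with matplotlib 3.10.9. The members and lists were chosen with earlier results of these data known.

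The main fit did not pair arrays by replicate number. The correlations of deviations given below do not settle whether the numbers mark pairs. Other settings tried were a block for the replicate number, leaving out each array, quantile normalisation, median centring, trend and robust settings, array weights, 2 filters on dim probe sets, probe sets of _s_at and _x_at type left out, the mean or the most variable probe set per gene, and a 1.5-fold minimum.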

Additional observations from a re-analysis of the deposited data

How the results depend on the processing

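CCL20 and LTB kept their direction and call in every alternative in which they were measured (16 and 15), with adjusted p of at most 0.00178 and 0.00283, and CXCL3 kept both in 16 (at most 0.0204) but not the 1.5-fold minimum. With the replicate number as a block, 2 members were higher and 1 lower, as reported, and LTB, CCL20 and CXCL3 were the genes called. The correlation of deviations was 0.14, 0.12 and -0.01 for arrays of the same number, and not every array correlated best with its own number, so this fit is given only here. The count of members lower was 1 to 2 with an array left out, 2 after quantile normalisation, 3 after median centring, with array weights, with the mean of probe sets or with probe sets below the lower quartile left out, 4 with those below the median left out, 5 with trend and robust settings and 0 with the 1.5-fold minimum. The probe sets lower numbered 1 to 2 with an array left out, 2 after quantile normalisation, 5 after median centring or with either filter on dim probe sets, 6 with trend and robust settings, 4 with array weights and 0 with the 1.5-fold minimum. Shares of all probe sets called were not taken in these settings. Without _s_at and _x_at probe sets, CXCL2, CXCL8, CCL2 and LTB were not measured, and 1 gene and 1 probe set were higher. CCL2 was -0.10 to 0.09 with an array left out, -0.04 after median centring and -0.09 with array weights. CCR6 was -0.04 to 0.03 with an array left out, and 0.02 after quantile normalisation or with array weights. CXCR2 was -0.01 to 0.05 with an array left out and -0.02 after median centring, and LTBR and IL6R were -0.03 to 0.01 and 0.00 to 0.07 with an array left out. Without _s_at and _x_at probe sets, CYLD was -0.27, MCL1 0.10 and CFB 0.01, each by another probe set of the gene. The dimness of CXCL1 and CCL2 limits what can be seen of them.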
